A study of Rattus norvegicus with 16 samples.

Results

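The enzymes that add methyl groups to lysines of histones and those that remove them were followed in rat liver. The members were the gene symbols of 2 kinds of enzyme, the histone lysine methyltransferases (Kmt, Setd, Suv, Ehmt, Ezh, Nsd1, Whsc1, Whsc1l1 and Ash1l) and the histone lysine demethylases (Kdm), with a mean normalized read count of at least 14.7 over the 16 libraries. Of 22587 gene symbols, 43 matched these names and 40 reached that level, 23 methyltransferases and 17 demethylases. Kdm4d, Setd4 and Kdm4dl1 stayed under it, with means of 0.798, 0.275 and 0.215. Suv39h2 lay nearest above it, with a mean of 21.2 normalized read counts.

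The study used male rats, 13 weeks old, of a strain given as Wistar-Wyoto. They were exposed to filtered air or to ozone at 0.8 ppm for 4 hours. A sham operation (SHAM) or total bilateral adrenalectomy (ADREX), which removes both adrenal glands, came before the exposure. Whole-liver mRNA was sequenced in 4 groups of 4 libraries: SHAM air (libraries 1 to 4), SHAM ozone (17 to 20), ADREX air (65 to 68) and ADREX ozone (81 to 84). The treatment label of the 4 ADREX air libraries says ozone, whereas their titles and the series' design place them in air, and the titles were followed. Nothing in the labels says that each library came from its own animal, so the p-values measure the spread between these libraries. In whole liver, fewer cells of a type and less RNA per cell cannot be told apart.

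Methylation leaves the charge of a histone lysine unchanged and turns it into a docking site for reader proteins. Methylation of H3K4 by enzymes of the Kmt2 and Setd1 families marks promoters and enhancers. Methylation of H3K36 by Setd2, Ash1l and the Nsd family marks transcribed chromatin. Methylation of H3K27 by Ezh1 and Ezh2 or of H3K9 by the Suv39h and Ehmt enzymes marks repressed chromatin. Almost all of these methyltransferases use a SET domain and take the methyl group from S-adenosylmethionine, which the liver produces in quantity. The demethylases are of 2 types: Kdm1a and Kdm1b oxidize the methyl group with FAD, and the JmjC proteins use iron, oxygen and 2-oxoglutarate. Steroid receptors, the glucocorticoid receptor among them, recruit enzymes of both kinds to their target genes.

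Promoter sequences are shown for the member with the strongest difference between groups, Nsd1, and for a pair of H3K4 demethylases whose windows hold a half-site of the glucocorticoid response element, Kdm5a and Kdm5b. Each RefSeq window runs from 250 bases before to 50 bases after the transcription start on the GRCr8 build, and is printed 5′ to 3′ on the gene's strand. The Nsd1 window is chr17:9429472-9429771 on the minus strand, that of Kdm5a chr4:155237874-155238173 on the plus strand, and that of Kdm5b chr13:48554147-48554446 on the plus strand. Capitals mark the GC box, whose letters are GGGCGG. They also mark the CCAAT box, named for its letters. The third motif in capitals is the half-site, AGAACA. Each was searched on both strands, and matches that overlapped would share their capitals.

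Nsd1: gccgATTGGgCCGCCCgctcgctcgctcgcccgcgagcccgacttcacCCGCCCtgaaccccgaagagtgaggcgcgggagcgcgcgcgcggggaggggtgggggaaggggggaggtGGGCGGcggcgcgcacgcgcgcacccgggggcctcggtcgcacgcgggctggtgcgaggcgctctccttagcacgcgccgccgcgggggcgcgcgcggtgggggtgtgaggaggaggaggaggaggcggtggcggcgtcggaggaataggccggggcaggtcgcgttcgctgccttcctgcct
Kdm5a: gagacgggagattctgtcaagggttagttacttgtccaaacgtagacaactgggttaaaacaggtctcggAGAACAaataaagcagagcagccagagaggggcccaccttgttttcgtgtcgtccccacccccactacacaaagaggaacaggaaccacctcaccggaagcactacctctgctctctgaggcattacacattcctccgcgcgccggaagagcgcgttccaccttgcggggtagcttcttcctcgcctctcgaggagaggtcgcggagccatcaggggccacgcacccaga
Kdm5b: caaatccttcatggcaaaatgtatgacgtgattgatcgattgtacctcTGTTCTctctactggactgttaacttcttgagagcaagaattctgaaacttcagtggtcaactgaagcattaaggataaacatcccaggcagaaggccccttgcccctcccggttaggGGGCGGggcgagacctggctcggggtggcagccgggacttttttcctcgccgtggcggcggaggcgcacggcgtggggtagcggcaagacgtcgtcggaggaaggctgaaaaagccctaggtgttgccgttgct

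In the Nsd1 window, 78.3% of the bases are G or C, and GC boxes begin 240, 202 and 133 bases before the start, with a CCAAT box 246 bases before it. The Kdm5a window is less GC-rich, at 57%, and its half-site begins 180 bases before the start. In the Kdm5b window, with 55.7% G or C, the half-site on the other strand begins 202 bases and a GC box 84 bases before the start.

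Of the 40 members, 34 matched a current RefSeq symbol and 6 a synonym, and 32 had a window, 41 windows in all. Not shown by a window were Ash1l, Ezh1, Kdm6a, Kmt2a, Kmt2e, Setd5, Setd7 and Whsc1l1. The half-site occurred in 5 of these 41 windows (12.2%, against 20.7% of the 33469 windows of all genes). The 5 belonged to Ezh2, Kdm5a, Kdm5b, Setd1b and Suv420h2. In ADREX ozone against SHAM ozone, described below, their log2 changes were 0.49, -0.60, -0.57, -0.66 and 0.68, in that order. Only Kdm5a and Kdm5b of these passed the test. The full palindrome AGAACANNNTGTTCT occurred in 0 of the 41 windows (0.0149% of all windows). GC boxes stood in 31 of the 41 (75.6%, against 33.1% of all windows), CCAAT boxes in 16 (39%, against 37.5%), the E-box CACGTG in 4 (9.76%, against 6.42%) and the cAMP response element TGACGTCA in 1 (2.44%, against 1.83%). Such matches describe letters in a window and not bound sites.

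The libraries held 8372891 to 14096246 reads, so that 3 reads correspond to 0.213 to 0.358 RPM (reads per 1000000 reads of the library), and every member had at least 7 reads in each library. Hepatocyte markers, all 10 of which were tested, summed to 103167 to 199521 RPM. Markers of neurons and oligodendrocytes, all 25 of which were measured, differed widely between libraries. They summed to 46.5 to 847 RPM in SHAM air, 78.4 to 2963 in SHAM ozone, 279 to 1217 in ADREX air and 824 to 4746 in ADREX ozone. ADREX ozone 82, SHAM ozone 18 and ADREX ozone 81 had the highest sums. Of 7 known targets of the glucocorticoid receptor, Fkbp5, Zbtb16 and Dusp1 were lower in ADREX ozone than in SHAM ozone, where 12.5% of all genes were called, and Fkbp5 had a log2 change of -2.56 ± 0.30 (SE). In air none of the 7 was called lower in ADREX, although 5 had a log2 change below 0. The median over the 7 was -0.25. Sgk1 was called higher in air, with a log2 change of 2.59 (limma, adjusted p = 0.0284). Its normalized read counts were 1340 ± 1595 (SD) in ADREX air and 164 ± 103 in SHAM air. The SD of Sgk1 in ADREX air was thus above its mean.

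After ozone, adrenalectomized rats had lower mRNA levels of 9 of the 40 enzymes than sham-operated rats, and no enzyme was higher. The comparison asks how the livers of ozone-exposed rats differ with and without adrenal glands. The 9 were the H3K36 methyltransferases Nsd1 and Ash1l, the H3K4 methyltransferase Kmt2b, the H4K20 methyltransferase Suv420h1, the H3K4 demethylases Kdm5a, Kdm5b and Kdm5c, and the demethylases Kdm3b and Kdm7a. Calls are from limma on log2(value + 1), with p-values adjusted by Benjamini-Hochberg over the 12791 genes tested and a threshold of 0.05. Of all genes tested, 12.5% passed in this comparison (6.48% lower and 6.04% higher), against 22.5% of the members. The log2 change was below 0 for 27 members, against 40.8% of all genes, and its median was -0.21 over members and 0.11 over all genes. Rescaling by TMM moved these medians to -0.32 and 0.01, the members' calls to 11, all lower, and the calls among all genes from 772 higher and 829 lower to 538 and 1132.

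The 4 ADREX ozone values lay below all 4 SHAM ozone values in 14 members (35%), against 9.94% of all genes, and above them in none, against 10.6%. Beside the 9 called genes these were Kdm2a, Kdm2b, Kmt2c, Setd2 and Whsc1l1. Of the 16 members with an unadjusted p under 0.05 (31.2% of all genes), 15 were lower. Among all genes, 1652 of the 3986 with such a p were lower. On the recovered reads, 10 members were called by edgeR (12.4% of all genes) and 12 by DESeq2 (17.1%). Methyltransferases and demethylases were alike in direction: 15 of 23 and 12 of 17 were lower, 4 and 5 of them called, with median log2 changes of -0.16 and -0.34.

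**Figure D1:**
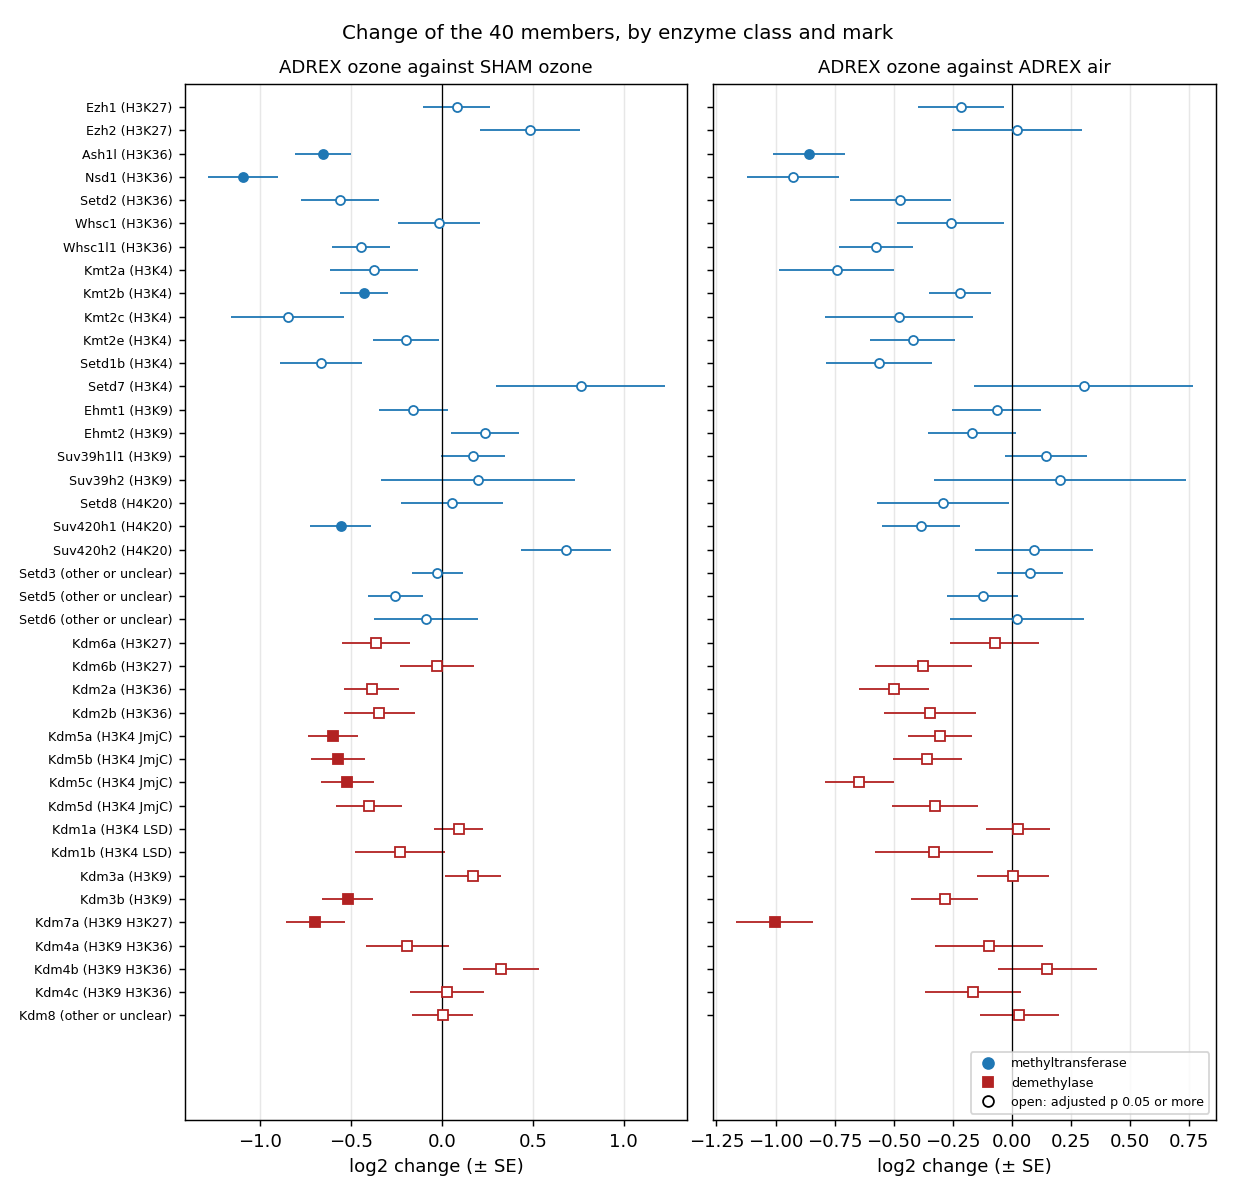
Log2 change (± SE) of the 40 members, grouped by mark, for ADREX ozone against SHAM ozone (left) and ADREX ozone against ADREX air (right); filled symbols passed the adjusted threshold. Filled symbols lie left of 0 in both panels, 9 on the left and 2 on the right.

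Nsd1, which methylates H3K36 and was first described as a partner of nuclear receptors, had the strongest difference. Its normalized read counts were 1396, 1040.1, 1303 and 947 in ADREX ozone and 2162, 2255, 3010.2 and 2519 in SHAM ozone, so the highest ADREX ozone library stayed below the lowest SHAM ozone library. The group means were 1172 ± 213 and 2486 ± 380.5 (SD, n = 4). The log2 change was -1.09 ± 0.19 (limma, adjusted p = 0.0025). In air, the counts were 2018, 1692, 2351 and 2496 in SHAM and 2634, 2761, 1626 and 1977 in ADREX, and those groups overlapped. All 4 ADREX ozone values were therefore below every one of the other 12 libraries.

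Ash1l, an H3K36 methyltransferase of the Trithorax group, which keeps developmental genes active, had the highest mean count of all members (2220 over the 16 libraries; counts are not scaled to transcript length, so levels of different genes are not compared). It counted 1804, 1514, 1329.6 and 1412 in ADREX ozone, against 2283, 2664, 2289.7 and 2245 in SHAM ozone, with no overlap. The log2 change was -0.65 ± 0.15 (limma, adjusted p = 0.0118). In air it counted 2141, 1859, 2214 and 2777 in SHAM and 2597, 3297, 2363 and 2732 in ADREX, all above the 4 ADREX ozone values.

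The other 3 H3K36 methyltransferases did not pass the test. Setd2, the enzyme that trimethylates H3K36 behind RNA polymerase II, had 724 ± 160.4 in ADREX ozone and 1050.4 ± 114 in SHAM ozone (SD, n = 4), a log2 change of -0.56. Whsc1l1 (Nsd3) had 152 ± 24.4 against 205 ± 12.8, a log2 change of -0.44 ± 0.16 (limma, adjusted p = 0.0735). The groups of both genes did not overlap. Whsc1 (Nsd2) had a log2 change of -0.01 ± 0.23. The median log2 change of the 5 was -0.56.

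Among the 6 members grouped here as H3K4 methyltransferases, only Kmt2b, which acts at bivalent promoters, passed the test. Methyltransferase activity was not measured, and Kmt2e is counted in the group by its family name. Kmt2b had 465, 384, 468 and 494 in ADREX ozone and 618, 579, 554 and 686 in SHAM ozone, a log2 change of -0.43 ± 0.13 (limma, adjusted p = 0.0425). Kmt2c, an enzyme of enhancer H3K4 monomethylation, had 74.3, 31.4, 49.4 and 60.4 against 90.6, 93, 103 and 87, a larger log2 change of -0.85 with a wider spread (adjusted p = 0.0818). Setd1b, of the Set1 complexes, had a log2 change of -0.66 (adjusted p = 0.0635), Kmt2a of -0.37 and Kmt2e of -0.20. Setd7, which also methylates proteins other than histones, was the one member of the class with a positive value, 0.76 (adjusted p = 0.27), and ADREX ozone 82 alone had 112 against 25.2 to 57.2 in the other 3 libraries of its group.

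The H4K20 enzymes differed among themselves. Suv420h1 (Kmt5b), which turns monomethylated H4K20 into the di- and trimethylated forms, had 399, 392, 365 and 374 in ADREX ozone and 494, 482, 659 and 637 in SHAM ozone, with no overlap. Its log2 change was -0.56 ± 0.17 (limma, adjusted p = 0.0387). Its paralog Suv420h2 (Kmt5c) had the opposite sign: 94.9, 58.7, 81.2 and 122 against 63.4, 58.7, 51.1 and 42.8, a log2 change of 0.68 that missed the threshold (adjusted p = 0.0787). It passed as higher in 2 alternatives, with array quality weights (0.63, limma adjusted p = 0.0364) and without ADREX ozone 82 (0.86, adjusted p = 0.0427). Setd8 (Kmt5a), which sets the first methyl group, had a log2 change of 0.06.

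The 6 methyltransferases of H3K9 and H3K27 gave 0 calls with limma and 0 unadjusted p-values under 0.05, a number too small to set against the 12.5% of all genes called. The H3K9 methyltransferases Ehmt1, Ehmt2, Suv39h1l1 and Suv39h2 ranged from -0.16 (Ehmt1) to 0.24 (Ehmt2) on the log2 scale, 3 of the 4 above 0. Ezh1 and Ezh2, the catalytic subunits of Polycomb repressive complex 2, had log2 changes of 0.08 and 0.49 ± 0.28, the latter with an adjusted p of 0.237 (limma). Ezh2 counted 34.3, 51.3, 40.6 and 47.5 in ADREX ozone and 33.2, 35.5, 27.2 and 26.5 in SHAM ozone, which overlapped. Setd3, better known for methylating actin, Setd5 and Setd6 had log2 changes of -0.02, -0.25 and -0.09.

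**Figure D2:**
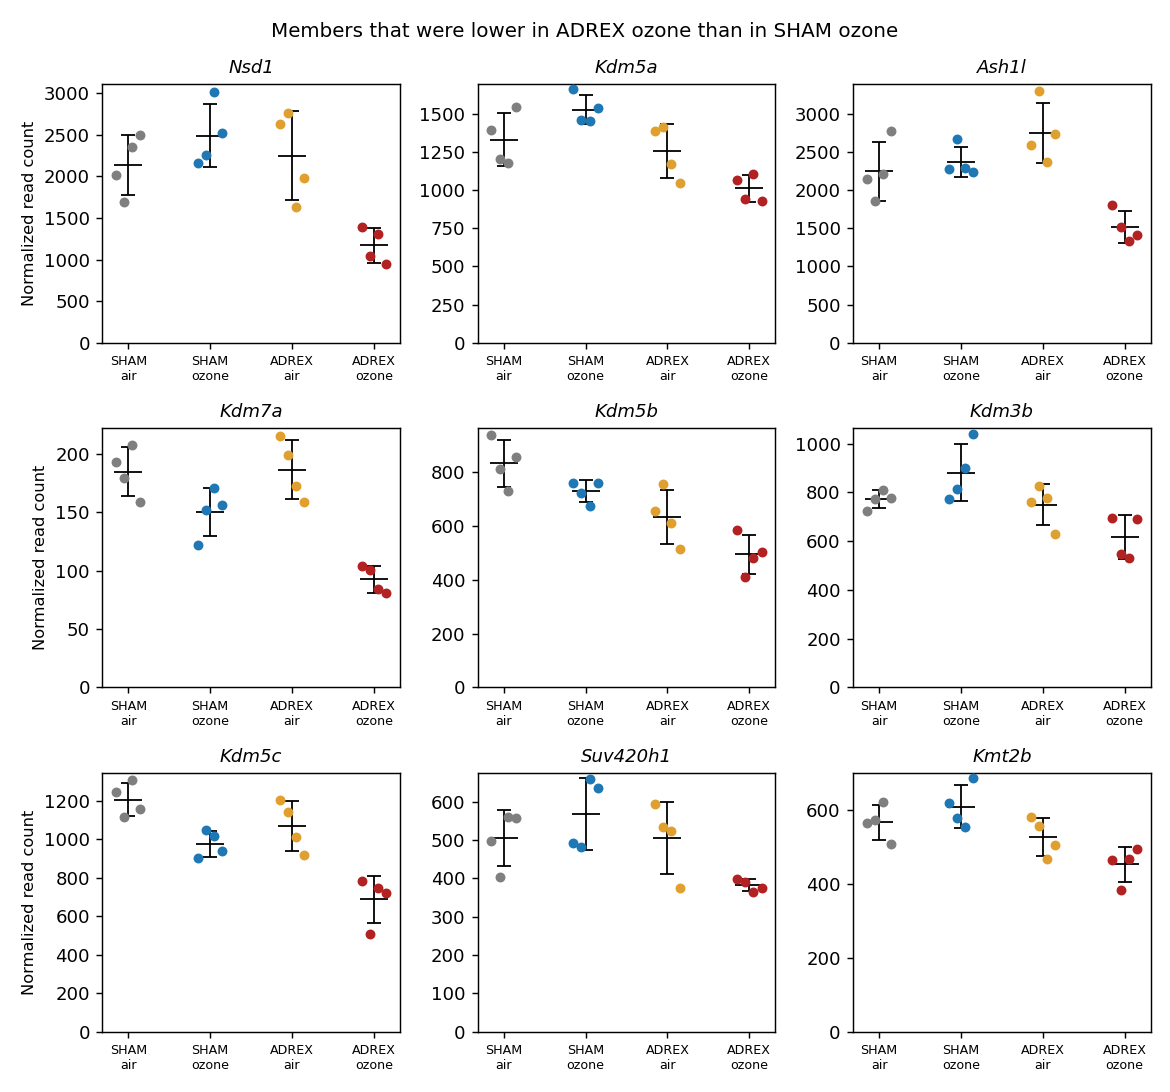
Normalized read counts of the 9 members that passed the test, by group, with the mean and SD of 4 libraries; each axis starts at 0. In every panel the 4 ADREX ozone points lie below the 4 SHAM ozone points.

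Among demethylases, the Kdm5 family, JmjC enzymes that remove di- and trimethylation from H3K4 at promoters, had the most calls, 3 of 4. Kdm5a had 1069, 939.6, 1108 and 927 in ADREX ozone and 1661, 1461, 1455 and 1537 in SHAM ozone, a log2 change of -0.60 ± 0.14 (limma, adjusted p = 0.0108). Kdm5b had 586, 409.6, 479 and 502 against 759, 724, 674 and 759.5, a log2 change of -0.57 ± 0.15 (adjusted p = 0.0195). Neither gene's groups overlapped.

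Kdm5c, the X-linked member of the family, had 782, 509, 744 and 718 in ADREX ozone and 899.9, 1047, 1016 and 936 in SHAM ozone, a log2 change of -0.52 ± 0.15 (limma, adjusted p = 0.0302). Its Y-linked copy Kdm5d had 339.7, 301, 264 and 449 against 402, 456, 443 and 454, a log2 change of -0.40 (adjusted p = 0.148), and its groups overlapped through ADREX ozone 84. The pair is close in sequence, and the way reads shared by both were counted is not given in the sources used here, so the values of each are uncertain. The median log2 change of the 4 Kdm5 genes was -0.54. Kdm1a and Kdm1b, the FAD-dependent H3K4 demethylases, had 0.09 and -0.23 and were not called.

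Kdm7a, a JmjC enzyme that reads H3K4 trimethylation and removes methyl groups from H3K9 and H3K27, had 104, 101, 84.5 and 80.6 in ADREX ozone and 122, 152, 171 and 156 in SHAM ozone. The log2 change was -0.69 ± 0.16 (limma, adjusted p = 0.0126). Kdm3b, an H3K9 demethylase, had 696, 548, 532 and 691 against 773, 815, 899 and 1038, a log2 change of -0.52 ± 0.14 (adjusted p = 0.0259). Its paralog Kdm3a, an enzyme induced by low oxygen, had 0.17.

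The remaining demethylases were not called by limma, and 1 of them, Kdm2a, had an unadjusted p under 0.05. Kdm2a, which binds unmethylated CpG islands and demethylates H3K36, had 1358, 954, 1062 and 1235 in ADREX ozone and 1465, 1410.5, 1521 and 1574 in SHAM ozone, a log2 change of -0.39 (limma, adjusted p = 0.0959). Kdm2b had -0.34. The H3K27 demethylases Kdm6a and Kdm6b had -0.36 and -0.03, and Kdm4a, Kdm4b and Kdm4c, which act on H3K9 and H3K36, had -0.19, 0.33 and 0.03. Kdm8 had 0.005.

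Neural marker sums moved with the groups compared, being 824 to 4746 RPM in ADREX ozone and 78.4 to 2963 in SHAM ozone. With the neural score of each library in the fit, 4 members (10%) were called, against 8.48% of all genes. With the 3 libraries richest in these markers left out, which leaves 2 ADREX ozone against 3 SHAM ozone libraries, 1 member (2.5%) was called, against 3.74% of all genes. The members' share of calls, 22.5% against 12.5% with all libraries, was thus near that of all genes in both of these fits. The 1 member was Nsd1 (limma adjusted p = 0.0234; 0.00122 to 0.0107 over fits that each leave out 1 library). The log2 changes of the 9 members without those libraries were -1.19 for Nsd1, -0.84 for Kdm7a, -0.73 for Ash1l, -0.68 for Suv420h1, -0.61 for Kdm5a, -0.57 for Kdm5b, -0.56 for Kdm3b, -0.38 for Kdm5c and -0.36 for Kmt2b. As a description over 16 libraries, the within-group correlation of members with the neural score had a median of -0.15, against 0.09 over all genes tested. It ran from -0.71 (Setd1b) to 0.67 (Kdm2b). Below -0.7 were 1 member (2.5%) and 0.954% of all genes, and above 0.7 were 0 members and 9.4% of all genes.

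Of the 10 hepatocyte markers, 7 were lower in ADREX ozone than in SHAM ozone, with a median log2 change of -0.22, near the members' -0.21. Cps1 was called lower (-1.09) and Apoa1 higher (1.41). Adrenal markers, of which only Cyp17a1 reached the filter, summed to 12.4 to 41.2 RPM in ADREX ozone and 4.19 to 9.55 in SHAM ozone without overlap. Cyp17a1 was called higher (2.26). The same held in air, with sums of 8.33 to 60.7 in ADREX and 3.64 to 5.26 in SHAM. Cyp17a1 was called higher there too (2.42, limma adjusted p = 0.0321). Its normalized read counts in air were 406 ± 364 (SD) in ADREX and 54.5 ± 17.1 in SHAM, a wide spread in ADREX. Kupffer cell markers summed to 756 to 1542 RPM in ADREX ozone and 624 to 893 in SHAM ozone. Of the 10 tested, C1qa, C1qb and Clec4f were called higher, and 2 had a log2 change below 0. Lymphocyte markers summed to 36 to 46.8 RPM against 17.2 to 31.8. Of 10 listed, 5 were tested, and Cd8a, Gzma and Nkg7 were called higher. Their mean normalized read counts were low, at 37.5, 33.1 and 35.1 in ADREX ozone and 15.1, 11.4 and 17 in SHAM ozone. Of all genes, 12.5% were called in this comparison, 6.04% as higher. Endothelial sums were 257 to 397 against 246 to 416, stellate cell sums 227 to 349 against 268 to 477, and proliferation markers 58 to 81.5 against 42.7 to 63.1. The part of these markers in the lower enzyme levels was not tested.

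Single libraries decided part of the list. Nsd1, Ash1l, Kdm5a and Kdm7a passed whichever of the 16 libraries was left out. Kdm5b lost its call without SHAM ozone 17 or 20 or ADREX ozone 82, and Kdm3b without SHAM ozone 19 or 20 or ADREX ozone 82 or 83 (largest adjusted p of 0.0609 and 0.0953, limma). Kdm5c lost it without any 1 of the 4 SHAM ozone libraries or ADREX ozone 82, Suv420h1 without SHAM ozone 17, 19 or 20 or any 1 of the 4 ADREX ozone libraries, and Kmt2b without any of 9 libraries: SHAM air 2, the 4 SHAM ozone libraries, ADREX air 66 and ADREX ozone 81, 82 and 83.

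Within adrenalectomized rats, 2 members, Kdm7a and Ash1l, were lower after ozone than in air, and none was higher. This comparison asks what the exposure did without adrenal glands. Only 0.125% of all genes passed here (0.086% lower), against 5% of the members. Kdm7a went from 215, 199, 173 and 159 in ADREX air to 104, 101, 84.5 and 80.6 in ADREX ozone, a log2 change of -1.0 ± 0.16, and Ash1l from 2747 ± 397 to 1515 ± 207 (SD, n = 4), a log2 change of -0.86 ± 0.15; both had a limma adjusted p of 0.0352. The ADREX ozone group is shared with the comparison above, so the values of the same libraries enter both.

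Both calls were lost when a library was left out: both without SHAM air 1, SHAM ozone 17, 19 or 20, ADREX air 65 or 66, or ADREX ozone 82, 83 or 84, and that of Ash1l also without SHAM ozone 18 or ADREX air 68 (largest adjusted p of 0.156 for Kdm7a and 0.167 for Ash1l, limma). The groups did not overlap for Ash1l, Kdm2b, Kdm5c, Kdm7a, Nsd1 and Whsc1l1, all lower, 15% of the members against 2.98% of all genes. Nsd1, with 2249.6 ± 539 in ADREX air and 1172 ± 213 in ADREX ozone, had a log2 change of -0.93 (adjusted p = 0.0768), and Kdm5c one of -0.65 (adjusted p = 0.0875). Kdm2a had -0.50 ± 0.15 (adjusted p = 0.145). In all, 29 of the 40 members were below 0, against 43.4% of all genes, and the 13 with an unadjusted p under 0.05 (17.8% of all genes) were all lower. Among all genes, 871 of the 2282 with such a p were lower. Rescaling by TMM moved these to 1294 of 2302 and put 6707 of the 12791 genes below 0. On the recovered reads, edgeR called 3 members (0.383% of all genes) and DESeq2 7 (4.46%). The median log2 change was -0.27.

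In sham-operated rats no member was called after ozone, by limma, edgeR or DESeq2, and 2 had an unadjusted p under 0.05, both lower (limma). Of all genes, 1.58% passed in limma, 1.38% in edgeR and 4.19% in DESeq2, and 18.4% had an unadjusted p under 0.05 (2358 genes, 1109 of them lower). The smallest adjusted p was 0.25, for Kdm4a, an H3K9 and H3K36 demethylase, which had 374, 413, 358 and 435 in SHAM ozone and 448, 777, 408 and 700.3 in SHAM air, groups that overlapped. Kdm1a had a log2 change of -0.25 ± 0.14 (adjusted p = 0.34). The groups did not overlap for Kdm5c, Whsc1 and Whsc1l1, all lower, 7.5% of the members against 5.93% of all genes. Kmt2a had the lowest log2 change, -0.53, and 27 members were below 0, against 49% of all genes, with a median of -0.18.

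The difference between the ozone effects, ADREX minus SHAM, was called for no member by limma or edgeR, with 7 unadjusted p-values under 0.05, and for 2 by DESeq2 (Ash1l and Nsd1). Of all genes, 0.109% passed in limma, 0.188% in edgeR and 1.94% in DESeq2, and 12.9% had an unadjusted p under 0.05. The difference was below 0 for 24 members, against 44.9% of all genes. Ash1l had a difference of -0.95 ± 0.22 in log2 change (limma, adjusted p = 0.114), Nsd1 one of -1.15 ± 0.27 (adjusted p = 0.116) and Kdm7a one of -0.71 (adjusted p = 0.225). In SHAM, Nsd1 went from 2139 ± 359 in air to 2486 ± 380.5 after ozone (SD, n = 4), and Ash1l from 2248 ± 385 to 2370.4 ± 197. An unequal response to ozone was therefore not shown for any member with limma in the fit without library weights. With array quality weights, limma called 2 members (5%, against 1.42% of all genes). Across the 40, the log2 change with ozone was below 0 in both SHAM and ADREX for 19 members, above 0 in both for 3, above 0 in SHAM and below 0 in ADREX for 10, and the reverse for 8.

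**Figure D3:**
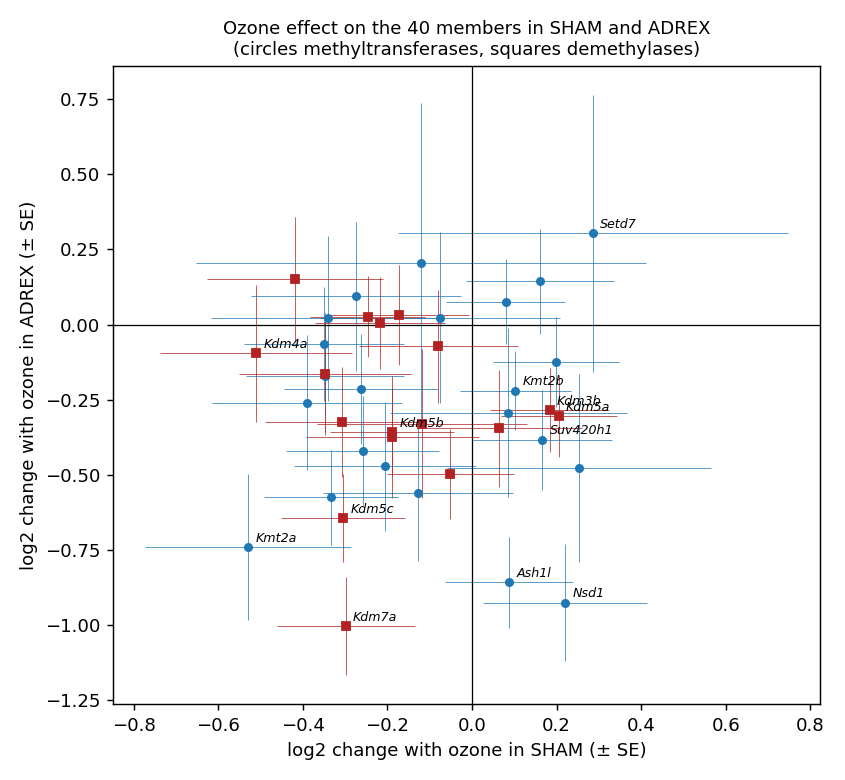
Log2 change with ozone (± SE) in SHAM (horizontal) and ADREX (vertical) for the 40 members; circles are methyltransferases and squares demethylases. Nsd1 and Ash1l lie near the bottom to the right of 0, Kdm7a lowest and to the left of 0, and Setd7 at the top.

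In air, adrenalectomy alone went with no called member by limma, edgeR or DESeq2, and 3 members had an unadjusted p under 0.05, all lower (limma). Of all genes, 3.53% passed in limma, 2.96% in edgeR and 6.53% in DESeq2, and 20.2% had an unadjusted p under 0.05 (2579 genes, 1191 of them lower). Kdm5b had 657, 755, 611 and 515 in ADREX air and 938, 811, 729 and 857 in SHAM air, a log2 change of -0.40 (adjusted p = 0.144), with an overlap of 1 ADREX library. Kdm4a had 397, 374, 386 and 325 in ADREX air, below the 448, 777, 408 and 700.3 of SHAM air, a log2 change of -0.60 ± 0.23 (adjusted p = 0.154), and it was the only member whose groups did not overlap (2.5%, against 5.03% of all genes).

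Ehmt1, an H3K9 methyltransferase, had a log2 change of -0.44 in air (limma, adjusted p = 0.21), Kdm6a, an X-linked H3K27 demethylase, of -0.37 (adjusted p = 0.279), and Kdm8 of -0.20 (adjusted p = 0.507). In all, 26 members were below 0, against 45.9% of all genes, and the median was -0.07.

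Library by library, the members' median deviation from their own mean over the 16 libraries put ADREX ozone apart. It was -0.37 to -0.11 (log2) in the 4 ADREX ozone libraries, while the median over all genes there was 0.06 to 0.11. The members' medians were 0.08 to 0.21 in SHAM air, 0.00036 to 0.05 in SHAM ozone and -0.08 to 0.24 in ADREX air. ADREX ozone 82, the library with the most neural marker reads, was the lowest. In ADREX air, 65 and 66 were above 0 and 67 and 68 below it.

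**Figure D4:**
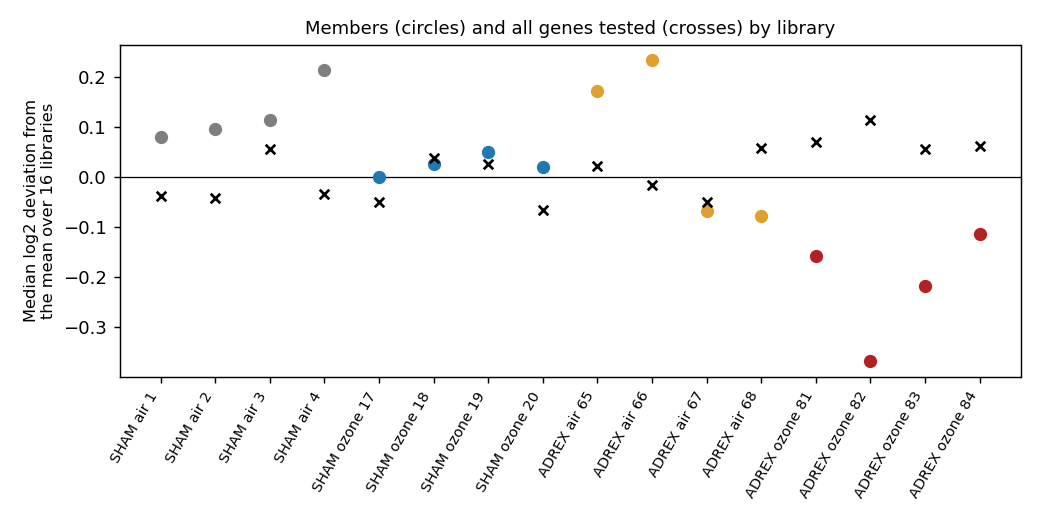
Median log2 deviation of the 40 members (circles) and of all genes tested (crosses) from their means over the 16 libraries. The 4 ADREX ozone circles lie lowest, between -0.37 and -0.11, with their crosses above 0.

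In other lists of chromatin genes, counts of calls in ADREX ozone against SHAM ozone are to be read against the 12.5% of all genes called (6.48% lower and 6.04% higher). Of 16 further lysine enzymes tested, 2 were lower: Dot1l, the H3K79 methyltransferase, with 188 ± 30.6 against 331 ± 68.8 (SD, n = 4) and a log2 change of -0.81 ± 0.17, and Prdm2, with -0.52 ± 0.16 (limma, adjusted p = 0.00745 and 0.0426). Of the 15 partner subunits of the H3K4 methyltransferase complexes 1 was lower, Paxip1 (-0.85), and of 29 Polycomb partners 1, Rybp (-0.71), with medians of 0.08 and -0.02. Of 11 heterochromatin readers, Cbx3 (HP1 gamma) was higher (1.07).

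Enzymes of other chromatin marks gave a mixed picture. Hat1 was the 1 called gene, higher (0.56), of 13 acetyltransferases, Prmt2 higher (1.0) among 8 arginine methyltransferases, and Dnmt3b lower (-0.89) among 12 genes of DNA methylation. Of 25 genes that supply or use S-adenosylmethionine and 2-oxoglutarate, 3 were lower and 1 higher, near the share of all genes. Bhmt, which remethylates homocysteine to methionine in the liver, had 6265 ± 3603 against 63956 ± 14065 normalized read counts (SD, n = 4), a log2 change of -3.50 ± 0.79 (limma, adjusted p = 0.00988). Methionine synthase Mtr (-0.60) and Ogdh (-0.44), a subunit of the enzyme that consumes 2-oxoglutarate, were lower, and fumarate hydratase Fh (0.81) was higher. Differences of this list were also present in air. There Bhmt had 10019 ± 11919 in ADREX and 36556 ± 15424 in SHAM (SD, n = 4) and was not called. Bhmt2 and Gnmt were called lower in air, and Fh was called higher (1.34).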

How the data were processed

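Liver mRNA of 16 libraries was sequenced on an Illumina NextSeq 500, per the labels' protocols. The authors deposited a normalized signal: read counts divided by 1 size factor per library. Partek, DESeq2 and the rn6 build are named in the submitters' processing notes, but the aligner, counter, annotation and all versions were not given in the sources used here. All values (100%) came out whole within 0.01 of a read when multiplied back.

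limma 3.58.1 (R 4.3.3) was fitted to log2(value + 1) for 12791 genes with a mean of at least 14.7 (1 RPM at the median library), with 4 group means, 12 residual and 4.42 prior degrees of freedom, 5 two-sided comparisons and Benjamini-Hochberg adjustment. Fold changes on this scale understate low genes. Alternatives were other scalings, filters, weights, a neural score, left-out libraries, and count models of the whole reads (edgeR 4.0.16, DESeq2 1.42.0). The limma step was tested on simulated data. Those data held no neural marker gradient between libraries, and the changes put in were larger than those of most called members. The test therefore does not check the calls given above.

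The members and lists were chosen with earlier results of these data known. Chosen by rule were members that passed the test and, for classes with none, the one with the smallest p. Other members are named beside them within their classes.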

Additional observations from a re-analysis of the deposited data

Results flagged for a closer look

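Of 160 sets of 4 libraries (40 members in 4 groups), 5 held a library far from the other 3, by a gap that chance gives in about 1 set in 20, so that the number of sets is no more than chance gives. Ash1l had 2664 normalized read counts in SHAM ozone 18, against 2245 to 2289.7 in the other 3 libraries. Setd5 had 1041 in ADREX air 66, against 679.9 to 737. Suv39h2, the member with the lowest mean, had 70.2 in SHAM air 4, against 9.61 to 14.9. Whsc1l1 had 305 in SHAM air 4, against 239 to 250.01, and 115 in ADREX ozone 82, against 161 to 166.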

How the results depend on the processing

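With limma, 9 members were called in ADREX ozone against SHAM ozone, 22.5% against 12.5% of all genes. Weighting libraries by quality gave 14 (35% against 26.7%), 13 lower and 1 higher (Suv420h2). Adding the neural score to the fit left 4 (10% against 8.48%), and dropping the 3 neural-rich libraries left 1 (2.5% against 3.74%). The count was 8 to 12 in the other alternatives that kept all libraries, and 6 (15% against 11.4%) when only these groups were fitted. With 1 library left out it was 4 to 10. SHAM ozone 17 or 19 (5 each), SHAM ozone 20 (4) and ADREX ozone 82 (5, 1 of them higher, Suv420h2) lowered it most. Fits with 1 library left out called 6.15% (without SHAM ozone 20) to 14.4% (without SHAM air 3) of all genes. In ADREX ozone against ADREX air, 2 were called, and 7 with DESeq2, 7 with array quality weights, 0 when only these groups were fitted, 0 without those 3 libraries and 0 to 3 with 1 library left out. The difference between ozone effects gave 0, but 2 with DESeq2 (5% against 1.94% of all genes) and 2 with array quality weights (5% against 1.42%). ADREX air against SHAM air gave 0, but 1 with array quality weights (2.5% against 11.4% of all genes). Both gave 0 with 1 library left out, as did ozone in SHAM, which gave 0 in every alternative run. Of the named members, no log2 change reversed. Of all genes, 16 were called for ozone in ADREX with limma, 570 with DESeq2 and 330 with weights. No paired analysis was possible because the replicate numbers differ between all 4 groups. Fitting only the groups compared gives no value for the difference, and Ezh2 fell below the stricter filter. Counts of 7 to 38 reads per library limit Suv39h2.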
